A study of Homo sapiens with 8 samples.

Results

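The fibrillar collagen genes COL1A1, COL1A2, COL3A1, COL5A1, COL5A2, COL5A3 and COL11A1 were followed across all 8 libraries of a polysome sequencing study of cultured human heart fibroblasts. They were taken by symbol, as 7 of the 59385 rows of the count table, and all 7 were among the 16228 genes with enough counts to be tested. Cells of the immortalized human cardiac fibroblast line IHCF had been infected with lentivirus carrying a short hairpin RNA, either one against eIF4G2 (gene symbol EIF4G2, a translation initiation factor of the eIF4G family without the binding site for the cap-binding protein eIF4E) or a scramble hairpin with no target. Every culture had grown in medium with serum and insulin, then spent at least 6 h in medium without serum and received TGFb, the cytokine that drives fibroblasts to lay down matrix, for another 24 h. No comparison here therefore measures the response of a collagen gene to TGFb. Total RNA and polysomal RNA, the mRNA that carries ribosomes, gave 2 libraries each for the scramble and the knockdown cells, so 4 groups in all. Both libraries of a group are labelled as biological replicates, but separate cultures are not named, so a p-value here speaks of the spread among these libraries and that spread may be technical. The labels name 1 hairpin against eIF4G2, so other effects of that hairpin and loss of eIF4G2 cannot be told apart.

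Fibrillar collagens are the rope-like proteins that give tissue its tensile strength. Each is a trimer of chains that wind into a triple helix, which needs a glycine at the start of each triplet of residues, and the trimers are secreted, trimmed at their ends and packed side by side into fibrils. Type I collagen, the main fibril of the heart's matrix, joins 2 COL1A1 chains with 1 COL1A2 chain. Type III, a homotrimer of COL3A1, is co-assembled with it. Type V, made of COL5A1 and COL5A2 chains and, in some tissues, COL5A3, starts new fibrils and sets their width, and type XI, which holds COL11A1, does the same in cartilage. The question put to these 7 genes is whether their mRNA level, and their share in polysomes, depend on eIF4G2.

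The part of the mRNA around the start codon is shown for 6 genes because it is where translation begins and because it differs among them. The 30-base windows hold 12 bases before the start codon and 18 from it on, read from the GENCODE release 29 transcripts on GRCh38, 5′ to 3′ in the sense of the mRNA, with the start codon in capitals.
COL1A1: tagggtctagacATGttcagctttgtggac
COL1A2: taagtgctagacATGctcagctttgtggat
COL5A2: taatatttagacATGatggcaaactgggcg
COL5A1: cgccccgccggcATGgacgtccatacccgc
COL5A3: ggccccgccgggATGgggaaccgccgggac
COL11A1: cggggctcggagATGgagccgtggtcctct
The letters TAGAC stood directly before the start codon in the COL1A1, COL1A2 and COL5A2 windows, when read on the mRNA strand alone. Across the 18559 protein-coding genes with a transcript model, 21 had these 5 letters there (0.113%). The letters were picked from the windows of the collagen genes, and the 21 include those genes, so the share is a description and not a test. COL5A1, COL5A3 and COL11A1 had GC-rich windows without them, and all 6 windows had G at position -3 before the start codon. A match in letters describes the window, and binding of any protein to it was not measured.

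The coding sequence carries the helix as a run of Gly-X-Y triplets. The first 8 triplets of the longest run in 3 chains show the pattern, with the glycine codons in capitals.
COL1A1: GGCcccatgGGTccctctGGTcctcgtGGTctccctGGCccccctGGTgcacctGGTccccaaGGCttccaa
COL3A1: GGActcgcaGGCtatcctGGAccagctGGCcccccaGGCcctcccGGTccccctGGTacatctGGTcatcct
COL5A1: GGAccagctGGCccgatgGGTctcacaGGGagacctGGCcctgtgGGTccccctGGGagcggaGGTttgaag
These stretches begin at base 535 of the COL1A1, base 502 of the COL3A1 and base 1675 of the COL5A1 coding sequence. The longest unbroken run held 338 triplets in COL1A1, 339 in COL1A2 and 343 in COL3A1, and 337 in COL5A3, the shortest of the 7. It took 74.5% of the coding sequence in COL1A2 and 55.2% in COL5A1, where a long non-helical domain stands before it. Glycine made up 26.7% of COL1A1 codons and 28.2% of COL3A1 codons, against a median of 6.38% over the 12675 tested genes with a model. The chains differed in which glycine codon they used within the run. GGG made up 2.96% of the glycine codons in the COL1A1 run and 24.3% in that of COL5A3.

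The genes lie on 6 chromosomes of GRCh38, and all are split into many short exons. COL1A1 (ENSG00000108821.13) is at chr17:50183289-50201632 on the minus strand, with 51 exons, and COL1A2 (ENSG00000164692.17) at chr7:94394561-94431232 on the plus strand, with 52. COL3A1 (ENSG00000168542.14) at chr2:188974320-189012746 and COL5A2 (ENSG00000204262.12) at chr2:189031896-189225312 are neighbours on opposite strands. COL5A1 (ENSG00000130635.15) is at chr9:134641774-134844843 with 66 exons, COL5A3 (ENSG00000080573.6) at chr19:9959561-10010471 with 67 and COL11A1 (ENSG00000060718.21) at chr1:102876467-103108872 with 67. Their coding sequences run from 4098 bases in COL1A2 to 5514 in COL5A1, all within the longest decile of tested genes. COL5A3 overlaps the antisense gene AC008742.1 over 270 bases, and the strand setting of the counting was not given, so its few counts could be shared with that gene.

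The target of the hairpin was low in every knockdown library. EIF4G2 stood at 794 and 785 CPM (counts per 1000000 of the library total scaled by edgeR's TMM factor) in scramble total replicates 1 and 2, and at 293 and 327 in knockdown total. In polysomal RNA it stood at 875 and 877 CPM in scramble and at 244 and 335 in knockdown. The groups did not overlap in either fraction. The log2 fold change was −1.35 ± 0.18 (SE) in total RNA, with an edgeR quasi-likelihood adjusted p of 0.0504, and −1.60 ± 0.18 in polysomal RNA, with 0.0276. DESeq2, the alternative test, gave EIF4G2 an adjusted p of 4.05e-10 in total RNA and 2.97e-14 in polysomal RNA. Libraries held 18043714 to 24590030 counts. The share of counts from the mitochondrial genome was 3.88 to 4.21% across the total libraries. It was 7.12% in replicate 1 of the scramble polysomes, against 14.5 to 17.5% in the remaining 3 polysomal libraries. Of 10 fibroblast markers, all had counts, with summed levels of 1386 to 1390 CPM in scramble total and 1511 to 1849 CPM in knockdown total, and 4418 to 5623 and 5338 to 6012 CPM in scramble and knockdown polysomes. VIM (1096 ± 3.73 CPM, SD, n = 2, in scramble total) and THY1 (235 ± 4.46 CPM) carried most of that sum, while PDGFRA (1.56 CPM), DCN (0.248 CPM) and FAP (0.204 CPM) were low. Of the 5 epithelial markers, the keratins KRT8 (934 ± 11.7 CPM) and KRT18 (437 ± 7.14 CPM) were high in scramble total, KRT19 stood at 5.49 CPM, EPCAM at 0.672 CPM and CDH1 at 0.0167 CPM. The 8 cardiomyocyte markers summed to between 0 and 1.15 CPM in each library, with 6 to 15 counts of NPPA and ACTN2 and 3 to 10 of TNNT2 in total libraries, and MYH6 and MYH7 had 0 counts in all 8.

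Type I collagen mRNA dominated the family. COL1A1, the main chain of type I, read 3866 and 3773 CPM in scramble total, 4052 and 4171 in knockdown total, 1458 and 1218 in scramble polysomes and 885 and 898 in knockdown polysomes. It alone made up 74.3 to 76.6% of the counts of the 7 genes in total libraries and 81.8 to 86.8% in polysome libraries. Together the 7 genes took 0.723 to 0.815% of all counts in total RNA. In polysomal RNA they took 0.134 and 0.0979% in scramble and 0.0731 and 0.0702% in knockdown. Their share was thus lower in every polysome library than in any total library.

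COL1A2, the partner chain of COL1A1, read 266.7 and 266.4 CPM in scramble total and 285 and 298 in knockdown total. In scramble polysomes it read 131 CPM in replicate 1 and 51.1 in replicate 2, and in knockdown polysomes 40.0 and 47.2. Its 2 scramble polysome libraries were farther apart than scramble replicate 2 was from either knockdown library. COL3A1, the chain of type III, read 49.5 and 48.8 CPM in scramble total and 50.0 and 51.5 in knockdown total. In polysomes it was at a few CPM, 6.18 and 2.67 in scramble and 0.810 and 4.93 in knockdown, from 12 to 114 counts, and the scramble and knockdown values interleaved.

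Of the type V chains, COL5A1 read 721 and 694 CPM in scramble total, 664 and 800 in knockdown total, 141 and 91.8 in scramble polysomes and 86.0 and 87.6 in knockdown polysomes. COL5A2 read 264 and 261 CPM in scramble total, 236 and 287 in knockdown total, 45.3 and 37.7 in scramble polysomes and 32.1 and 37.0 in knockdown polysomes. In total RNA the scramble values of both genes lay between the 2 knockdown values, and in polysomes both knockdown libraries lay below both scramble libraries. COL5A3 had 129 and 99 counts in scramble total and 97 and 131 in knockdown total. It had no count in either scramble polysome library, and 0 and 5 counts in the knockdown ones. COL11A1 of type XI had 51 and 61 counts in scramble total, 89 and 104 in knockdown total, 27 and 28 in scramble polysomes and 8 and 8 in knockdown polysomes, which made it higher with the knockdown in total RNA and lower in polysomes.

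**Figure D1:**
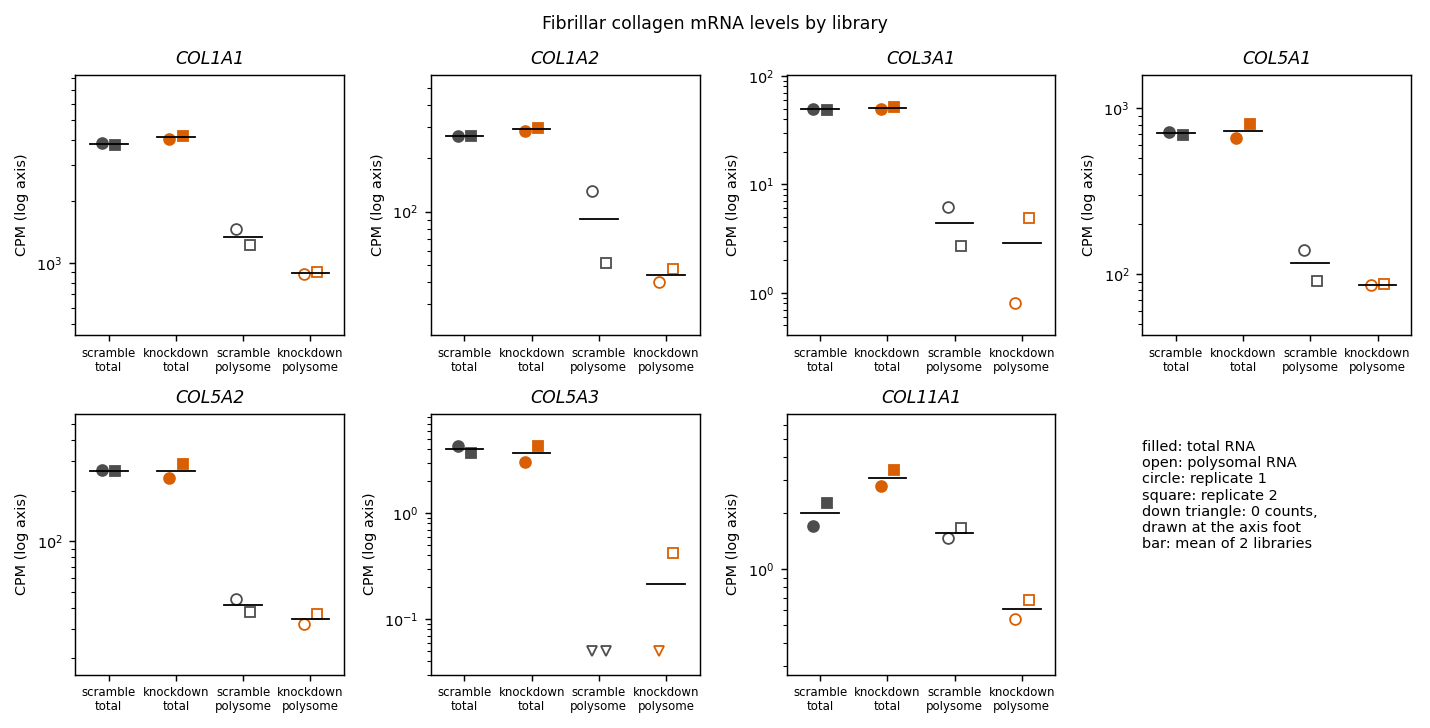
Level of each fibrillar collagen mRNA in the 8 libraries, in CPM on a log axis that differs between panels; filled symbols are total RNA, open symbols polysomal RNA, circles and squares replicates 1 and 2, and bars the mean of 2 libraries. In polysomes COL1A1 sits at 1458 and 1218 CPM in scramble and at 885 and 898 CPM in knockdown, and COL5A3 has 0 counts in 3 of 4 libraries.

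Per kilobase of transcript, which allows levels to be compared between genes, COL1A1 averaged 590 CPM per kb over the 4 total libraries and COL5A1 85.0. COL1A2 followed at 51.6 CPM per kb, COL5A2 at 37.0, COL3A1 at 9.01, COL5A3 at 0.622 and COL11A1 at 0.351. No neighbours in this order had ranges that overlapped across the 4 libraries, so the order held in each. In polysomes the order was COL1A1 (166 CPM per kb), COL1A2 (12.5), COL5A1 (12), COL5A2 (5.37), COL3A1 (0.658), COL11A1 (0.150) and COL5A3 (0.0172). There the ranges of COL1A2 and COL5A1 overlapped, as did those of COL3A1 and COL11A1. COL1A2 stood above COL5A1 only in scramble polysome replicate 1. In the other 3 polysome libraries COL5A1 was higher, with means of 10.4 against 8.52 CPM per kb, an average chosen after seeing the data.

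The mRNAs of partner chains were set against each other. Per transcript length, COL1A1 mRNA exceeded COL1A2 mRNA 11.7 and 11.4 times in scramble total and 11.4 and 11.3 times in knockdown total. Divided by the summed length of all annotated exons instead, the ratio was 15.9 to 16.5 in total RNA. In polysomes the ratio per transcript length was 8.93 and 19.2 in scramble replicates 1 and 2 and 17.8 and 15.3 in knockdown. The 2 scramble libraries thus enclosed the knockdown ones. COL5A1 exceeded COL5A2 2.22 to 2.35 times per transcript length in total RNA and 1.98 to 2.60 times in polysomes. Of all pairs among the 7 genes, COL5A1 and COL5A2 had the most similar profiles across the 8 libraries, with a root-mean-square distance of 0.12 between their centred log2 CPM values.

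**Figure D2:**
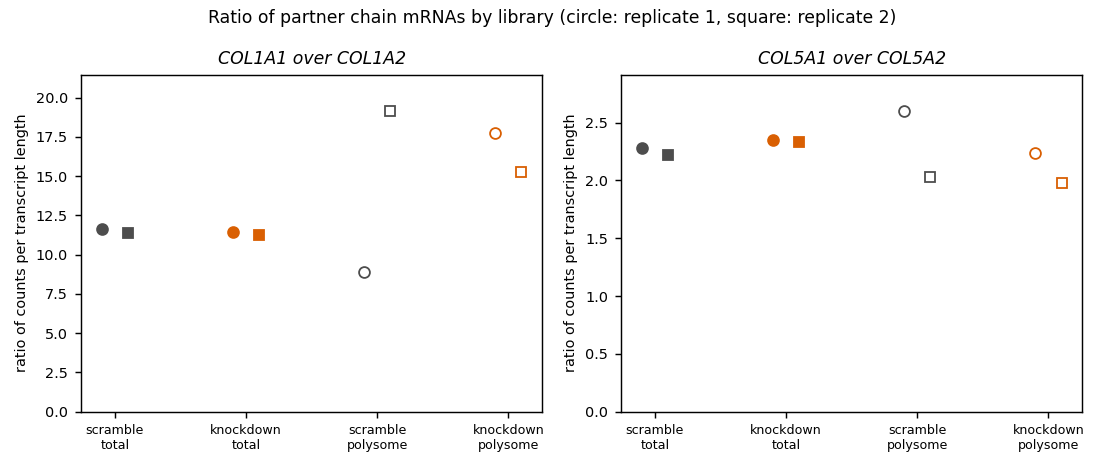
Ratio of counts per transcript length for the partner chains COL1A1 over COL1A2 and COL5A1 over COL5A2, 1 point per library, on axes that start at 0 (filled, total RNA; open, polysomal RNA). The COL1A1 to COL1A2 ratio keeps to 11.3 to 11.7 in total RNA and spreads from 8.93 to 19.2 in polysomes.

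In total RNA none of the 7 genes passed the test for a change with the hairpin. COL1A1 averaged 3820 ± 65.9 CPM (SD, n = 2) in scramble and 4112 ± 84.1 in knockdown, a log2 fold change of 0.11 with a 95% interval from −0.30 to 0.52. For COL1A2 the log2 fold change was 0.13 (−0.57 to 0.83), for COL3A1 0.05 (−0.88 to 0.97), for COL5A1 0.05 (−0.39 to 0.49) and for COL5A2 −0.01 (−0.35 to 0.34). COL11A1 averaged 1.99 ± 0.41 CPM in scramble and 3.11 ± 0.45 in knockdown, a log2 fold change of 0.64 (−0.27 to 1.56), and COL5A3 differed by −0.12 (−1.37 to 1.13). The intervals of COL5A3 and COL11A1 reach past a 2-fold change, and those of the other 5 genes do not. The fit took 1 spread per gene over all 8 libraries, so these intervals and p-values also hold the spread of the polysomal libraries. COL3A1, for example, read 48.8 to 51.5 CPM in total libraries and 0.810 to 6.18 in polysomal ones. EdgeR called 0 of the 7 at an adjusted p under 0.05, and 0 had an unadjusted p under 0.05. DESeq2 also called 0, and gave no adjusted p for COL5A3 and COL11A1. Over all tested genes edgeR called 0% and DESeq2 0.16%. The groups did not overlap, with knockdown higher, in 4 of the 7 (COL1A1, COL1A2, COL3A1 and COL11A1), against 24.8% of tested genes.

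In polysomal RNA 6 of the 7 mRNAs averaged lower with the knockdown, and none passed edgeR's test after adjustment. COL1A1 averaged 1338 ± 169 CPM (SD, n = 2) in scramble polysomes and 891 ± 9.38 in knockdown polysomes. Its log2 fold change was −0.59 ± 0.19 (SE, 95% interval −1.0 to −0.17), with an edgeR adjusted p of 0.244 and a DESeq2 adjusted p of 0.0177. COL1A2 averaged 91.2 ± 56.8 and 43.6 ± 5.08 CPM, with a log2 fold change of −1.07 ± 0.33, an edgeR adjusted p of 0.236 and a DESeq2 adjusted p of 0.0595. COL11A1, the least abundant of these in total RNA, averaged 1.56 ± 0.14 and 0.610 ± 0.099 CPM, with a log2 fold change of −1.36 ± 0.50 and an edgeR adjusted p of 0.298. The type V chains COL5A1 and COL5A2 differed less, by −0.42 ± 0.21 (edgeR adjusted p = 0.408) and −0.27 ± 0.16 (edgeR adjusted p = 0.516). COL3A1 differed by −0.70 ± 0.57, with an interval from −1.97 to 0.56 that spans 0. COL5A3 is given by its counts alone, since its only polysomal signal is 5 counts in knockdown replicate 2. These standard errors use the spread over all 8 libraries, so they may understate the spread of the polysomal libraries.

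EdgeR called 0 of the 7 genes in polysomal RNA, where it called 0.0123% of all tested genes, and DESeq2 called COL1A1, where it called 1.4%. At an unadjusted p under 0.05 edgeR had 3 of the 7 lower (COL1A1, COL1A2 and COL11A1), against 7.89% of all tested genes, and 1 higher, COL5A3, against 5.37%. The 2 knockdown libraries lay below the 2 scramble libraries in 5 of the 7 (COL1A1, COL1A2, COL5A1, COL5A2 and COL11A1), against 18.5% of tested genes. COL1A1, COL1A2 and COL11A1 were without overlap in both fractions, higher in total RNA and lower in polysomes, as were 3.24% of tested genes. The median log2 fold change of the 7 genes was −0.59 and that of all tested genes −0.01. All 7 genes lie in the longest decile of coding length. The median of that decile was −0.18 with the knockdown in polysomal RNA, and also −0.18 in total RNA. Scramble polysome replicate 1, with its lower mitochondrial share, held the highest polysomal CPM of 5 members, COL5A3 and COL11A1 excepted. Without that library COL1A1 stood at −0.47, COL1A2 at −0.25, COL5A1 at −0.10, COL5A2 at −0.15 and COL3A1 at 0.00, while COL11A1 stood at −1.47. Without scramble polysome replicate 2 the log2 fold changes were −0.78 for COL1A1, −1.66 for COL1A2, −1.25 for COL3A1, −0.77 for COL5A1 and −0.46 for COL5A2. COL3A1 also rested on knockdown polysome replicate 1, at 0.10 without it, and stood at −2.52 without knockdown polysome replicate 2, and COL5A2 stood at −0.44 without the latter. The 5 epithelial markers, all with counts, also summed lower in knockdown polysomes, at 2238 to 2268 CPM against 3128 to 3200 CPM in scramble polysomes. In total RNA their sums overlapped, at 1165 to 1423 CPM in knockdown and 1364 to 1392 CPM in scramble. The part of the mitochondrial share and of these markers in the collagen values was not tested.

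The polysome-to-total ratio asks whether the hairpin moved an mRNA in polysomes beyond its move in total RNA. The polysomal CPM of COL1A1 was 38.2 and 31.9% of its mean total CPM in the scramble libraries and 21.5 and 21.8% in the knockdown ones. That of COL1A2 was 49.3 and 19.2% in scramble and 13.7 and 16.2% in knockdown, and that of COL11A1 73.5 and 83.5% in scramble and 17.4 and 21.8% in knockdown. COL5A1 stood at 19.9 and 13.0% in scramble and 11.7 and 12% in knockdown, and COL5A2 at 17.2 and 14.4% against 12.3 and 14.2%. Each percentage divides by a group mean of total RNA, so the spread between total libraries is left out of it. For COL3A1 the scramble percentages of 12.6 and 5.44 and the knockdown percentages of 1.60 and 9.70 overlapped.

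The interaction of hairpin and fraction gave log2 differences of −2.0 ± 0.65 for COL11A1, −1.19 ± 0.45 for COL1A2 and −0.69 ± 0.26 for COL1A1, each with an edgeR adjusted p of 0.776. COL3A1 stood at −0.75 ± 0.71, COL5A1 at −0.47 ± 0.29 and COL5A2 at −0.26 ± 0.23. EdgeR called 0 of the 7 and 0% of all tested genes, and DESeq2 called 0 of the 7 and 0.0246% of all. At an unadjusted p under 0.05 edgeR had 3 lower, COL1A1, COL1A2 and COL11A1, against 4.33% of all tested genes, and 1 higher, COL5A3, which rests on its 5 counts, against 1.95%. Without scramble polysome replicate 1 the COL1A2 difference was −0.36, that of COL5A1 −0.14, that of COL5A2 −0.13 and that of COL3A1 −0.02. Without scramble polysome replicate 2 it was −1.28 for COL3A1, −0.80 for COL5A1 and −0.44 for COL5A2. For COL3A1 it was 0.08 without knockdown polysome replicate 1 and −2.55 without replicate 2. COL11A1 kept between −2.22 and −1.81 as each of the 8 libraries was left out in turn.

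**Figure D3:**
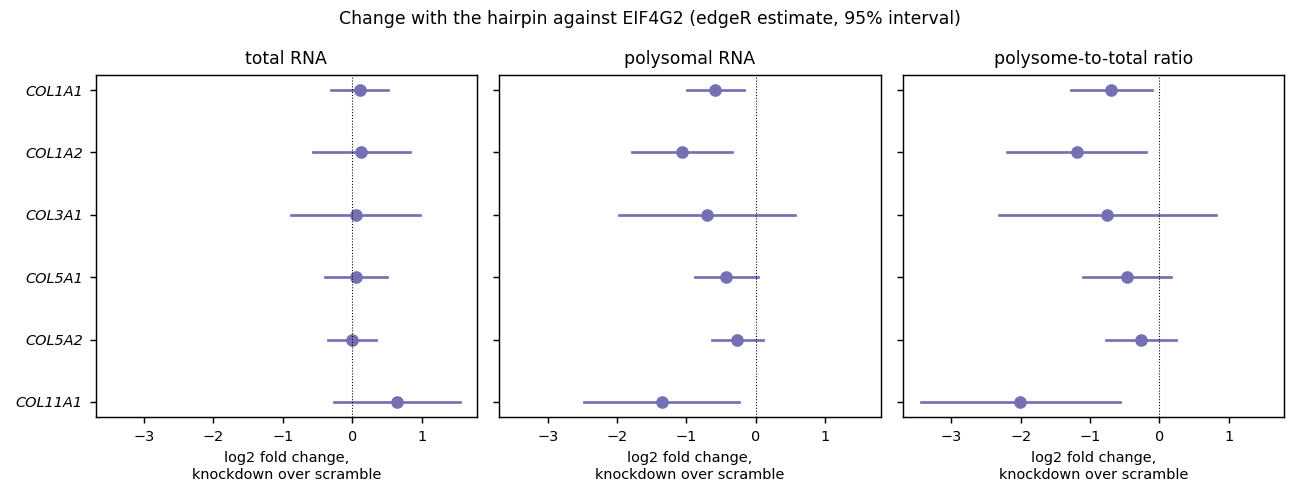
Log2 fold change of knockdown over scramble (edgeR estimate as point, 95% interval as line) in the 3 panels for total RNA, polysomal RNA and the polysome-to-total ratio, for 6 fibrillar collagens; COL5A3, with 0 counts in 3 of 4 polysome libraries, is left out. The points lie between −0.01 and 0.64 in total RNA and between −1.36 and −0.27 in polysomal RNA, where none has an edgeR adjusted p under 0.05.

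Against total RNA, the collagen mRNAs were scarce in polysomes. In scramble cells 6 of the 7 were called lower in polysomal than in total RNA, where edgeR called 33.7% of tested genes lower, and in knockdown cells 7 of 7, where it called 34.1% lower. COL3A1 averaged 49.1 ± 0.54 CPM (SD, n = 2) in scramble total and 4.43 ± 2.48 in scramble polysomes, a log2 fold change of −3.46 ± 0.49 (SE) with an edgeR adjusted p of 0.000102, and −4.30 without scramble polysome replicate 1. Among the members with counts in scramble polysomes, the type V chains COL5A2 and COL5A1 came next. COL5A2 stood at −2.66 ± 0.17 (edgeR adjusted p = 8.52e-07) and COL5A1 at −2.60 ± 0.21 (2.56e-06). The type I chains stood at −1.55 ± 0.32 (COL1A2) and −1.51 ± 0.19 (COL1A1), both called, and COL1A2 at −2.49 without scramble polysome replicate 1. COL11A1, with 55 polysomal counts in all, stood at −0.35 ± 0.43, with an edgeR adjusted p of 0.505. COL5A3 was at least 23.5-fold lower in scramble polysomes, taking a floor of 3 counts in each library.

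In knockdown cells the log2 fold changes of polysomal over total RNA were −4.21 ± 0.54 for COL3A1, −3.08 ± 0.22 for COL5A1 and −2.92 ± 0.17 for COL5A2. The COL3A1 value, from 12 and 58 polysomal counts, was −3.46 without knockdown polysome replicate 1 and −6.09 without replicate 2, called in both. The values were −2.74 ± 0.34 for COL1A2, −2.35 ± 0.49 for COL11A1 and −2.21 ± 0.19 for COL1A1. COL5A3 had 228 total and 5 polysomal counts, a ratio of 19.5 with a 95% counting interval from 8.23 to 60.6 that covers counting error only. The median of the 7 genes was −2.60 in scramble and −2.92 in knockdown cells, and that of all tested genes −0.17 and −0.16. A level in polysomes is a share of the polysomal library, so fewer ribosome-bound copies of a collagen mRNA and more of other mRNAs cannot be told apart.

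Long coding sequences were low in these polysome libraries in general. In the shortest decile of genes the median log2 fold change of polysomal over total RNA was 1.72 in scramble and 1.52 in knockdown cells, and in the longest decile, with coding sequences of 3537 bases and more, −2.14 and −2.12. All 7 collagens lie in that decile. COL1A1, COL1A2 and COL11A1 stood above its median in scramble cells, and COL3A1, COL5A1, COL5A2 and COL5A3 below. In knockdown cells all 7 stood below it. With each library's trend on transcript length removed, COL1A1 in scramble cells moved to −0.17 (edgeR adjusted p = 0.316) and COL1A2 to −0.45 (0.267), which ended both calls. COL3A1 then stood at −2.33, COL5A2 at −1.26 and COL5A1 at −1.07, still called lower, and COL11A1 turned to 1.08 (edgeR adjusted p = 0.0558). In knockdown cells the same step gave −3.09 for COL3A1, −1.65 for COL1A2, −1.57 for COL5A1, −1.55 for COL5A2 and −0.90 for COL1A1, all called, and −0.97 for COL11A1 (edgeR adjusted p = 0.108), which ended its call. Length, polysome recovery and RNA integrity cannot be told apart in these files. With library totals alone in place of TMM, the median of all genes moved to −1.16 in scramble and −1.22 in knockdown cells, and COL11A1 in scramble cells moved to −1.35 (edgeR adjusted p = 0.0145), close to that median.

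**Figure D4:**
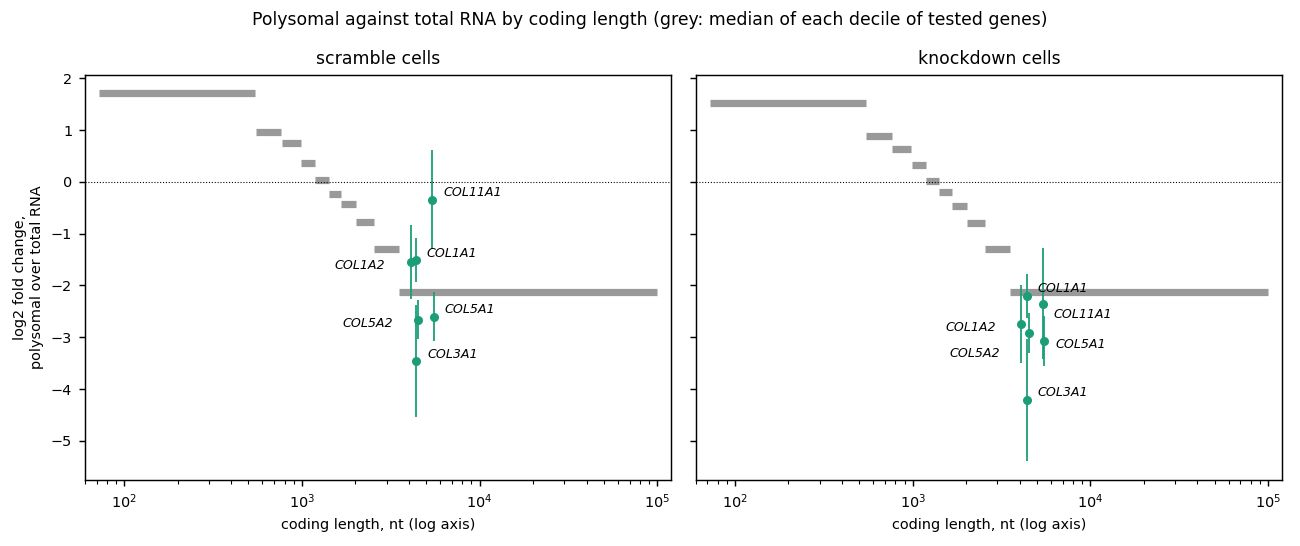
Log2 fold change of polysomal over total RNA against coding length in nucleotides (log axis), for 6 collagens with 95% intervals; grey bars give the median of each decile of tested genes by coding length, and COL5A3, with 0 counts in scramble polysomes, is left out. The medians run from 1.72 in the shortest to −2.14 in the longest decile in scramble cells, where COL1A1, COL1A2 and COL11A1 lie above the last and COL3A1 and the type V chains below.

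Of the 4 other fibrillar collagen genes, COL27A1 was the most abundant in total RNA, at 2.78 CPM per kb in scramble, between the levels of COL3A1 and COL5A3. COL27A1, a fibrillar collagen of developing cartilage, had 658 and 570 counts in scramble total, 718 and 804 in knockdown total, 20 and 24 in scramble polysomes and 40 and 37 in knockdown polysomes. It was the one whose polysomal level was higher with the knockdown without overlap, as in 15.5% of tested genes, with a log2 fold change of 1.22 ± 0.29, an edgeR adjusted p of 0.172 and a DESeq2 adjusted p of 0.0461. Like COL3A1 it was low in scramble polysomes, at −4.11 ± 0.26 against total RNA (edgeR adjusted p = 7.78e-07). COL2A1, the cartilage chain, had 49 to 60 counts in total libraries, 24 and 33 in replicate 1 of the scramble and knockdown polysomes and 3 and 1 in replicate 2. COL24A1 had at most 14 counts in any library, and COL11A2 had 0 counts in all 8.

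The genes that fold, export, trim, crosslink, bind and degrade fibrillar collagen were read from 8 lists of 105 genes, of which 90 were tested. With the knockdown edgeR called 0 of the 90 in total RNA (8 at an unadjusted p under 0.05), 0 in polysomal RNA (22) and 0 in the ratio (5), and DESeq2 called 1, 6 (4 higher and 2 lower) and 0. Over all tested genes the shares at an unadjusted p under 0.05 were 3.68% for total RNA, 13.3% for polysomal RNA and 6.27% for the ratio. DESeq2 called 0.16%, 1.4% and 0.0246% of all tested genes in these comparisons. Among the 18 genes of chain modification and folding, 4 had an unadjusted edgeR p under 0.05 in polysomal RNA, 2 higher and 2 lower, where 5.37% of all tested genes were higher and 7.89% lower. The list's median was −0.11. P4HA2, a catalytic subunit of the prolyl 4-hydroxylase that stabilises the helix, averaged 214 ± 1.48 CPM in scramble polysomes and 149 ± 20.3 in knockdown polysomes (log2 fold change −0.53 ± 0.14, edgeR adjusted p = 0.196, DESeq2 adjusted p = 0.0408). P3H2, a prolyl 3-hydroxylase, averaged 13.2 ± 0.34 and 21.7 ± 0.68 CPM (0.71 ± 0.17, DESeq2 adjusted p = 0.0306), and CRTAP, the cartilage-associated protein of the prolyl 3-hydroxylase complex, 239 ± 45.3 and 338 ± 64.1 CPM (0.50 ± 0.18).

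Against total RNA in scramble cells, 6 of the 18 folding genes were called higher, 5 lower and 7 not called, close to the shares over all tested genes, of which edgeR called 29.7% higher and 33.7% lower. PPIB, the cyclophilin that isomerises collagen prolines, averaged 152 ± 4.63 CPM in total and 533 ± 1.05 CPM in polysomes (log2 fold change 1.81 ± 0.15), and P4HA2 (1.14 ± 0.14) and P4HA1 (1.09 ± 0.14), the prolyl 4-hydroxylase subunits, were also called higher.

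Of 14 genes for export of cargo from the endoplasmic reticulum, PREB, the exchange factor that loads SAR1 onto the membrane, averaged 81.4 ± 8.78 CPM in scramble polysomes and 124 ± 6.19 in knockdown polysomes (0.61 ± 0.14, edgeR adjusted p = 0.172, DESeq2 adjusted p = 0.00981). The coat subunits SEC24D (−0.34 ± 0.18) and SEC31A (−0.23 ± 0.15) were not called by either tool. In scramble polysomes against total RNA 3 of the 14 were called higher and 6 lower, against 29.7% and 33.7% of all tested genes. SEC13 (1.75 ± 0.17) and SAR1B (1.35 ± 0.14) were higher and SEC24D (−1.14 ± 0.18) lower.

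Of 8 genes that trim the propeptides, 6 were tested. ADAMTS14, an N-proteinase, averaged 20.0 ± 0.21 CPM in scramble total and 0.719 ± 0.33 in scramble polysomes (−4.80 ± 0.38), while PCOLCE, the enhancer of the C-proteinase, stood at 0.76 ± 0.22, both called, and TLL1, a C-proteinase of the BMP1 family, at −1.37 ± 0.47, also called. With the knockdown, ADAMTS3, another N-proteinase, had 0 to 8 polysomal counts against 22 to 35 in scramble, with an edgeR adjusted p of 0.302, and PCOLCE stood at −0.56 ± 0.22 (edgeR adjusted p = 0.328).

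Each of the 5 lysyl oxidases, which crosslink the finished fibril, was called in scramble polysomes against total RNA, 2 higher and 3 lower, where 29.7% of all tested genes were called higher and 33.7% lower. LOX averaged 49.4 ± 0.997 CPM in total RNA and 212 ± 0.099 in polysomes (2.1 ± 0.14) and LOXL1 stood at 1.57 ± 0.14, while LOXL2 (−1.22 ± 0.20), LOXL3 (−0.70 ± 0.22) and LOXL4 (−1.48 ± 0.49) were lower. With the knockdown LOX stood at −0.01 ± 0.14 in polysomal RNA, LOXL3 at −0.73 ± 0.24 and LOXL2 at −0.39 ± 0.20, and none was called by either tool.

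Of 17 proteins that sit on or regulate fibrils, 11 were tested, and 3 were called higher and 6 lower in scramble polysomes against total RNA, beside 29.7% and 33.7% of all tested genes. COL12A1, a long collagen on the fibril surface, averaged 503 ± 28.2 CPM in total RNA and 35.2 ± 7.21 in polysomes (−3.84 ± 0.22). THBS2 (−5.10 ± 0.47, from 4 to 11 polysomal counts) and TNC (−2.48 ± 0.27), matricellular proteins, were also lower. With the knockdown COL12A1 stood at −0.67 ± 0.21 in polysomal RNA (edgeR adjusted p = 0.244, DESeq2 adjusted p = 0.108), and the small proteoglycans BGN and LUM at −0.41 ± 0.19 and 0.64 ± 0.29. BGN was also the 1 gene of the 8 lists that DESeq2 called in total RNA, at −0.90 ± 0.19 (DESeq2 adjusted p = 0.00491, edgeR adjusted p = 0.556).

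Among the 7 tested collagen receptors of 11, 3 were called lower and 0 higher in scramble polysomes against total RNA, with 5 lower at an unadjusted edgeR p under 0.05. Over all tested genes 33.7% were called lower, 29.7% higher and 35.8% were lower at that unadjusted p. DESeq2 called 4 receptors lower and 0 higher, and 34.1% and 28.7% of all tested genes. MRC2, the receptor that takes up collagen for breakdown, stood at −2.65 ± 0.14, and the collagen-binding integrins ITGA11 and ITGA10 at −0.76 ± 0.17 and −2.87 ± 0.96, ITGA10 from 0 to 8 polysomal counts. With the knockdown DDR2, a receptor tyrosine kinase for fibrillar collagen, averaged 2.34 ± 1.21 CPM in scramble polysomes and 0.601 ± 0.0093 in knockdown polysomes (−1.96 ± 0.51, edgeR adjusted p = 0.187, DESeq2 adjusted p = 0.0654).

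The degradation list held 5 of 8 tested genes with an unadjusted edgeR p under 0.05 in polysomal RNA with the knockdown, 2 higher and 3 lower, against 5.37% and 7.89% of all tested genes. MMP1, a collagenase, averaged 446 ± 30.2 CPM in scramble polysomes and 659 ± 33.9 in knockdown polysomes (0.56 ± 0.15, edgeR adjusted p = 0.195, DESeq2 adjusted p = 0.00676). MMP2, a gelatinase, stood at 0.55 ± 0.17 (DESeq2 adjusted p = 0.0935). MMP14, the membrane collagenase that activates MMP2, averaged 77.2 ± 9.27 and 54.5 ± 1.40 CPM (−0.50 ± 0.15, DESeq2 adjusted p = 0.0398). Against total RNA in scramble cells MMP14 was at −3.18 ± 0.16 and the short inhibitor TIMP1 at 2.93 ± 0.20, with TIMP2 at −1.0 ± 0.14, all called.

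Of 21 regulators of collagen expression, 8 were called higher and 11 lower in scramble polysomes against total RNA, with 29.7% and 33.7% of all tested genes called. LARP6, the protein that binds a stem-loop in type I collagen mRNAs, averaged 40.1 ± 0.71 CPM in total RNA and 164 ± 49.3 in polysomes (2.03 ± 0.20). SMAD3, a transcription factor of the TGFb pathway, stood at −1.86 ± 0.14 and RFX1 at −2.24 ± 0.21. With the knockdown TGFBR2, a TGFb receptor, averaged 68.0 ± 12.4 CPM in scramble polysomes and 104 ± 2.27 in knockdown polysomes (0.62 ± 0.17, edgeR adjusted p = 0.190, DESeq2 adjusted p = 0.0353). CREB3L1, a transcription factor that drives type I collagen genes, stood at 0.60 ± 0.18 (DESeq2 adjusted p = 0.0568) and LARP6 at −0.34 ± 0.20 (edgeR adjusted p = 0.476).

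The genes whose profile over the 8 libraries lay nearest to that of COL1A1, among 4611 genes with a mean log2 CPM of at least 5, were MOV10 (root-mean-square distance 0.09 in centred log2 CPM), CLSTN1 (0.09), ZDHHC7 (0.11), NPEPPS (0.12) and FOSL2 (0.12). No fibrillar collagen was among them, and COL1A2 was 0.35 away. COL3A1, COL5A3 and COL11A1 lay below that mean level and so could not be among them. For COL3A1 the nearest were DST (0.53), RRBP1 (0.53), MKI67 (0.56), SPTBN1 (0.59) and NOTCH2 (0.60), all farther than the nearest to COL1A1. COL3A1 had only 12 to 114 counts in polysome libraries, so counting noise enters its distances. A distance covers all 8 libraries, the step between fractions included.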

How the data were processed

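Polyadenylated total and polysomal RNA of the 8 libraries was sequenced in pairs on a NovaSeq6000, per the series' design text, which speaks of triplicates where 2 libraries per group were analysed here. The authors deposited 1 table of whole-number counts per gene symbol, without normalization. Per the submitters' processing notes, which give no role or order, the tools were HISAT2 2.1.0, featureCounts, Subread 2.0.1, Trimmomatic 0.36, bcl2fastq 2.19.0, R 4.1.2 and DESeq2, with the GRCh38 build. The annotation, the strand setting and the handling of reads with several matches are not given in the sources used here.

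Groups came from the sample titles. Counts were filtered with filterByExpr over the 4 groups, scaled by TMM and fitted in 1 quasi-likelihood model over all 8 libraries (edgeR 4.0.16, R 4.3.3, robust, 4 residual degrees of freedom). All 16228 tested genes entered the Benjamini-Hochberg adjustment, and 0.05 was the threshold. A standard error is the log2 fold change over the square root of F. Log2 CPM used a prior count of 2. The fit was also run on simulated counts with changes planted in the polysomal knockdown libraries. The planted changes were larger than the polysomal knockdown changes of all members but COL5A3, so that run does not speak of changes as small as theirs. DESeq2 1.42.0 was the alternative test, and its missing adjusted p-values count as not called. Other alternatives were other scalings, no low-count filter, the libraries of a comparison alone, a replicate block, removal of a loess trend on transcript length, and leaving out each library. Transcript lengths and sequences came from GENCODE release 29 (1 transcript per gene, by APPRIS and length), which matched 12675 tested symbols. One start codon window is not reported here. The members and lists were chosen with earlier results of these data known. Named genes are the 7 members, EIF4G2, the 4 other fibrillar collagens, the 3 tested genes of each role list with the smallest p in the polysomal knockdown comparison and in the scramble fraction comparison, and the 5 nearest profiles. Single marker genes were named after their values were seen. Depth was 18043714 to 24590030 counts per library. Without molecular identifiers, read counts are not independent molecules.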

Additional observations from a re-analysis of the deposited data

Results flagged for a closer look

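COL1A1, COL1A2 and COL11A1 stood out because the hairpin against eIF4G2 went with opposite shifts in the 2 fractions: both knockdown libraries lay above both scramble libraries in total RNA and below both in polysomal RNA. Of all tested genes, 3.24% showed this pattern. The rise in total RNA was small for the type I chains, at a log2 fold change of 0.11 for COL1A1 and 0.13 for COL1A2. It was 0.64 for COL11A1, and all 3 of these 95% intervals spanned 0. The log2 difference between the polysomal and the total change was −0.69 for COL1A1, −1.19 for COL1A2 and −2.0 for COL11A1. The test of that difference, the interaction of hairpin and fraction, gave an edgeR adjusted p of 0.776 for each, so none passed. The COL11A1 value rests on 8 to 104 counts per library, and the COL1A2 value was −0.36 without scramble polysome replicate 1.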

How the results depend on the processing

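Across 16 alternative settings, 8 of them leaving out 1 library each, 533 of 550 values of single members kept their direction and their side of the threshold, 9 reversed, 3 lost the call and 5 gained it. This count does not measure the size of a change. As each library was left out, the knockdown change in polysomal RNA ranged from −1.66 to −0.25 for COL1A2 and from −0.77 to −0.10 for COL5A1. In polysomal RNA the count of members called with the knockdown, 0 by edgeR, was 1 with DESeq2 and 2 without a filter on low counts, and in the ratio it was 1 without that filter. COL1A2 depended most on the setting. Apart from leaving out a library, its edgeR adjusted p ranged from 1.29e-06 to 0.754 in polysomal RNA and from 0.00152 to 0.894 in the ratio. In total RNA COL5A1 ranged from −0.093 to 0.18, COL5A2 from −0.15 to 0.13 and COL5A3 from −0.40 to 0.11 as each library was left out, and COL5A2 was 0.13 with the transcript length trend removed. COL3A1 ranged from −2.52 to 0.10 in polysomal RNA and from −2.55 to 0.076 in the ratio. With the length trend removed, COL11A1 in scramble polysomes against total RNA was 1.08. Over all tested genes, edgeR called 0 with the knockdown in total RNA, against 26 with DESeq2, 38 without the filter, 10 with the libraries of the comparison alone and 4 with the length trend removed. In polysomal RNA it called 2, against 228 with DESeq2, 502 without the filter, 1 with library totals alone, 3 with the replicate block and 0 to 183 with a library left out (183 without knockdown polysome replicate 2). In the ratio it called 0, against 4 with DESeq2, 64 without the filter and 2 without knockdown polysome replicate 2. The cause of these differences was not tested. COL5A3 had no value where both polysome groups were at 0 counts. COL5A3 and COL11A1 hold too few polysomal counts for a narrow interval.

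Deviations of same-numbered libraries from their group means correlated between −0.09 and 0.03 over all tested genes. Counting noise in low genes draws such correlations towards 0, so they cannot decide whether the numbers pair the libraries. The median log2 gap of the 7 genes, replicate 1 minus replicate 2, was −0.27 in knockdown total and −0.24 in knockdown polysomes. In scramble it was 0.02 in total RNA and 0.26 in polysomes. With the replicate block COL1A1 in polysomal RNA was −0.58 and COL1A2 −1.0, and 0 members were called in each of the 3 knockdown comparisons. Against total RNA the block left 6 members called in scramble and 7 in knockdown cells.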
